A study of Mus musculus with 25 samples.

Results

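The oxidative phosphorylation genes were the rows of the expression table whose mouse gene symbol began with Nduf, Uqcr, Cox4 to Cox8 or Atp5, or was Sdha, Sdhb, Sdhc, Sdhd, Cycs or Cyc1. There were 89 of them among the 9931 rows that carried a symbol. Sorted by respiratory complex, 37 were counted with complex I, 7 were assembly factors of complex I, 4 encoded complex II, 9 complex III, 1 the carrier cytochrome c, 14 complex IV and 17 complex V. Ndufa4 was counted with complex IV, where its protein is now placed. All 89 were found by identifier in the GENCODE M21 annotation of the mouse genome (GRCm38), spread over 19 chromosomes, and 88 were annotated as protein coding. The other, Ndufb4c, is a processed pseudogene, counted among the 37 of complex I, inside Mroh5 on chromosome 15 (chr15:73809507-73809896, minus strand), and reads of it and of its parent Ndufb4 may have been shared between the pair. Another 20 annotated genes with a matching symbol were not analysed here. Among them were Cox4i2 and Ndufa4l2, which encode alternative isoforms of members described here.

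The respiratory chain sits in the inner mitochondrial membrane. Complexes I and II pass electrons from NADH and succinate to ubiquinone, complex III passes them on to cytochrome c, and complex IV hands them to oxygen. The proton gradient that complexes I, III and IV build is spent by complex V, the ATP synthase. Neurons rely heavily on this pathway for firing, synaptic transmission and axonal transport, and most of its subunits are encoded in the nucleus by genes that are transcribed in nearly every cell.

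The values came from sensorimotor cortex neurons of young adult mice labelled C57BL/6 that carried a TdTomato reporter behind a floxed stop (STOP flx/flx TdTomato) together with floxed alleles of REST (REST flx/flx). REST is a transcriptional repressor that keeps neuronal genes silent in other cells. All animals received an adeno-associated virus in the cortex, and in both arms a synapsin promoter, active in neurons, drove its cargo. GFP was the cargo in the wild-type arm (AAV-Syn-GFP, WT), and Cre recombinase, which deletes REST and switches on tdTomato, in the other (AAV-Syn-Cre, REST cKO). Virus cargo, sorting colour and genotype therefore cannot be told apart. Mice had a sham operation or a complete crush of the spinal cord at thoracic level 10, and about 1000 fluorescent neurons per sample were sorted after 1, 3 or 7 days. The 8 groups held 4 WT sham, 3 WT day 1, 3 WT day 3, 3 WT day 7, 3 REST cKO sham, 2 REST cKO day 1, 4 REST cKO day 3 and 3 REST cKO day 7 libraries. REST cKO day 1, with 2 libraries, was the smallest group, and none of its libraries came from batch 1.

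Facts of the whole series bear on every value below. The deposited values were normalized and on a log2 scale, but the scale was narrow. No value exceeded 5.16, and 2 raised to the values summed to between 21927 and 31113 per library, so a difference of 1 is given here as a difference on the deposited scale and not as a doubling of reads. The files hold no read total for a library, and the study's methods give only an average depth, so the depth behind each library is not known here. In WT day 3 replicate 5, 29.5% of all genes lay under -2, against 2.77% to 17% in the other 24 libraries. All WT day 7 libraries came from females and all REST cKO sham and REST cKO day 7 libraries from males, so at day 7 sex and genotype cannot be told apart. Rest itself lay at 0.56 to 2.88 in WT day 3 and 0.26 to 2.74 in WT day 7, above the REST cKO ranges of -1.61 to -0.04 and -1.21 to -0.33, while in sham its ranges overlapped (-1.55 to -0.26 in WT and -2.65 to -0.52 in REST cKO), as they did at day 1 (-1.35 to 0.71 and -0.43 to -0.40). Over the 25 libraries, medians of the 11 measured neuron markers ran from -0.04 (Nefl) to 2.93 (Syt1), with Snap25 at 2.77. All 10 of 10 microglia markers were also present, C1qa (median 3.13) and Cx3cr1 (median 3.19) among them, in neurons labelled as sorted. The mean of these 10 lay at 2.44 to 3.17 across libraries, above that of the neuron markers at 0.49 to 2.11. The groups are called neurons below by that label.

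What the genes shared besides their names was sought in their promoters. RefSeq promoters (GRCm38.p6, 250 bases before to 50 bases after the start) were found for 73 of the 89 genes, 78 promoters in all. The binding motif of NRF1, a known activator of respiratory chain genes, was searched as GCGCATGCG on both strands and lay in 11 of the 78 (14.1%), against 1.75% of all 32851 RefSeq mouse promoters. The YY1 motif AAGATGGCG lay in 8 (10.3%, against 1.40%) and the ETS motif CCGGAAG, which GABP binds, in 17 (21.8%, against 8.86%). The left part of the REST element, TTCAGCACC, lay in 1 (1.28%, against 0.371%), that of Atp5k, and the right part, GGACAGCGC, in 0 (against 0.405%). A match says only that these letters are present. The shares set beside the members are those of all RefSeq promoters, whether or not the gene was measured here. No share over the measured genes alone was counted. The stretches around the motifs of some of the genes that return below are printed on the gene's strand, with the motif in capitals; in Cox6a1, Uqcrc1 and Atp5k the NRF1 motif overlaps itself on the other strand, which makes 10 letters. The first 5 lines show NRF1 motifs, the next 2 YY1 motifs and the last the REST element part. The motifs of the Cycs and Ndufa8 lines and the REST element part are read on the other strand.
Cycs (chr6:50566612-50566640, minus strand): catgctagctCGCATGCGCgcgcacaaac
Ndufa8 (chr2:36049329-36049357, minus strand): tcgctggagaCGCATGCGCagatggtacc
Uqcrc1 (chr9:108936668-108936697, plus strand): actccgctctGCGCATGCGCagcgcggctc
Cox6a1 (chr5:115349101-115349130, minus strand): caggaacgggGCGCATGCGCgctctcgctc
Atp5k (chr5:108434430-108434459, minus strand): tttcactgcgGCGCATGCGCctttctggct
Ndufc1 (chr3:51408915-51408943, minus strand): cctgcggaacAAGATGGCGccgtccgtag
Ndufs4 (chr13:114388045-114388069, minus strand): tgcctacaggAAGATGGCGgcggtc
Atp5k (chr5:108434578-108434606, minus strand): attacacgccGGTGCTGAAgtaacgaggc

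To ask whether spinal cord injury or REST depletion altered the pathway, each group was compared with its sham group and the 2 genotypes were compared at each time, in 10 comparisons. None of the 89 genes passed an adjusted p of 0.1 in any of them, nor in the test of whether the change from sham to day 7 differed between genotypes (limma, Benjamini-Hochberg adjustment over 9931 genes). Over all genes this threshold was also passed rarely in this fit. It was passed by 0.0101% of genes between WT day 3 and WT sham, 0.0302% between the genotypes in sham, 0.0201% between REST cKO day 3 and REST cKO sham, 0.0201% in the day 7 test of the difference between genotypes, and by 0% in the other 7 comparisons. The smallest adjusted p of a member was 0.234, for Ndufa8 between the genotypes at day 7 (limma). The study, with its own limma fit and the same threshold, reports genes that differ between the genotypes, far more at its latest time point. In the fit used here 0% of all genes passed between the genotypes at day 3 and at day 7. The absence of members past the threshold therefore holds for this fit of the deposited values. Why the fits differ was not tested.

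Counts at an unadjusted p under 0.05 were mostly at or below those of all genes. In WT neurons 3 of 89 genes reached it at day 1 (background 6.43% of all genes), 5 at day 3 (6.9%) and 3 at day 7 (6.89%), each against sham. Between the genotypes 3 genes reached it without injury (6.91%), and 1 gene (3.81%), 8 genes (6.37%) and 4 genes (9.95%) did so at day 1, 3 and 7. In REST cKO neurons it was reached by 3 at day 1 (5.29%), 4 at day 3 (4.65%) and 3 at day 7 (5.67%), and in the test of the difference by 1, Ndufs4 (6.35%). Only the 8 of 89 between the genotypes at day 3 (8.99%) lay above the share of all genes. Ndufs5, Ndufb7, Ndufb5, Ndufb4 and Cox4i1 had higher values in REST cKO there, and Ndufab1, Uqcrc2 and Cox6a1 lower ones. The comparisons against one sham group share its libraries, as do those of one group against its sham and against the other genotype, so none of these counts is independent of the rest.

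**Figure D1:**
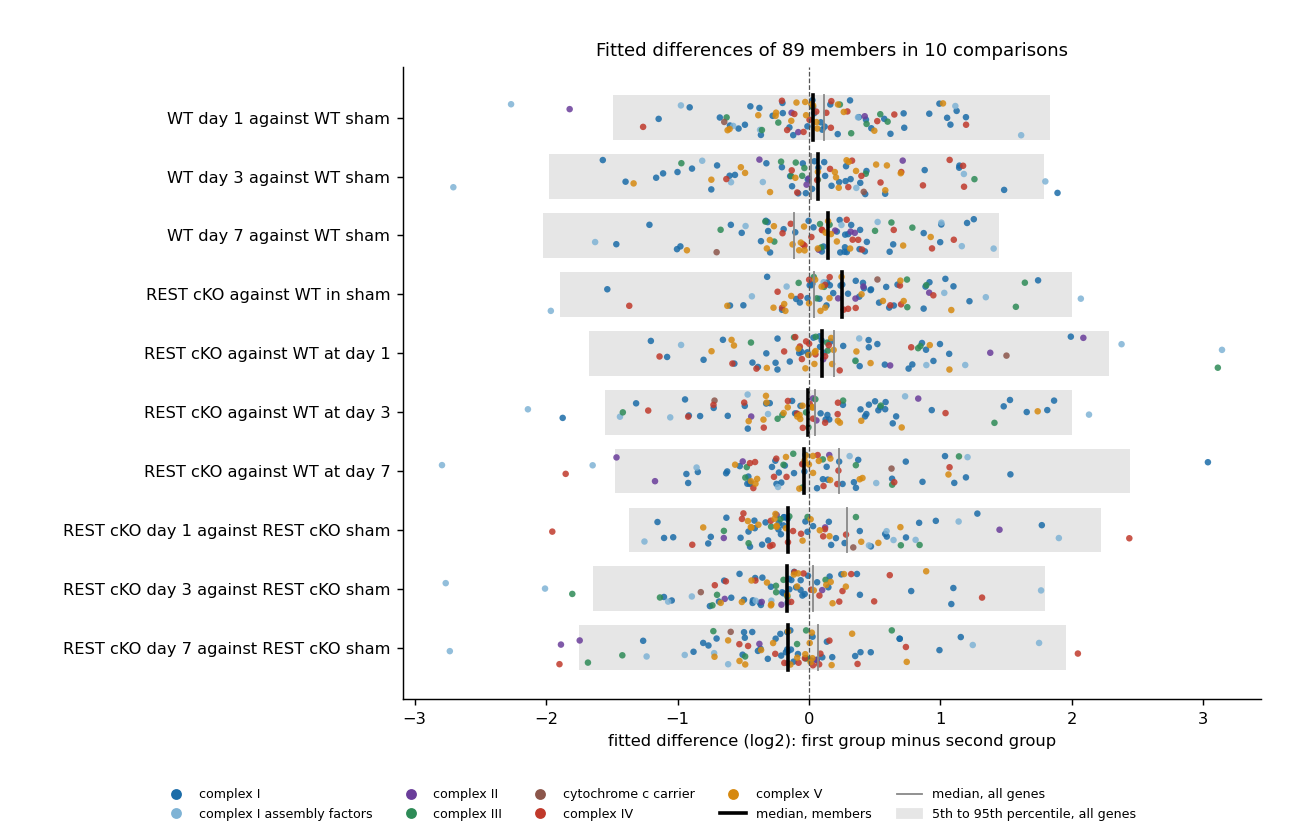
Fitted differences (log2, first group minus second group, horizontal axis) of the 89 genes in 10 comparisons (rows); points are genes coloured by complex, the black and grey lines are the medians of the members and of all genes, and the grey bands hold the 5th to 95th percentile of all genes. Member medians stayed between -0.16 and 0.25, and none of the points passed an adjusted p of 0.1.

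The precision reached can be read from the 95% intervals of the fitted differences. Between WT day 7 and WT sham the interval lay within -1 to 1 for 31 of 89 genes, against 7.55% of all genes, and between REST cKO and WT at day 3 for 26 (5.93%). The number was 27 for WT day 1 against sham (6.58%), 22 for WT day 3 (5.45%), 19 between genotypes in sham (4.92%), 20 at day 1 (3.37%) and 24 at day 7 (6.26%). For REST cKO day 1, 3 and 7 against REST cKO sham it was 17 (4.88%), 22 (5.9%) and 22 (5.21%), and for the test of the difference 11 (1.98%). For the remaining genes a difference of 1 or more on the deposited scale is not shown to be absent.

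The tight intervals went with high values. Of the 89 genes, 44 (49.4%) had a mean of 2 or more over the 25 libraries, against 11.1% of all genes, and only 9 had a mean under 0. Within a band of equal level the members were about as variable as other genes. The median residual SD (the spread left after the fit) was 0.376 for members and 0.414 for all genes at 2 or more, 0.812 and 0.757 between 1 and 2, 1.21 and 1.27 between 0 and 1, and 1.64 and 1.52 under 0. Over all members, the residuals of 2 genes correlated as little as those of any 2 genes of the table (mean Pearson's r across 25 libraries 0.0125 and 0.0127, given as a description). By complex this mean was -0.00302 in complex I, 0.00150 in II, -0.0372 in III, 0.0218 in IV and 0.0473 in V.

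Atp5k (chr5:108433244-108434448, minus strand), a small membrane subunit of the ATP synthase, had the smallest residual SD of all members, 0.136. Its value stayed between 2.47 and 2.90 in every one of the 25 libraries. Ndufb3, an accessory subunit of complex I, came next with 0.187 and a range of 2.09 to 2.92. At the other end stood Cox6a2 with 1.97, the form of subunit 6A known from heart and skeletal muscle, and the assembly factor Ndufaf5 with 1.87. Atp5s was chosen after its values were seen, because its level was low (mean -0.24) and yet its residual SD was 0.440. Its lowest library was a REST cKO sham library at -1.04 and its highest a WT day 3 library at 0.86.

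**Figure D2:**
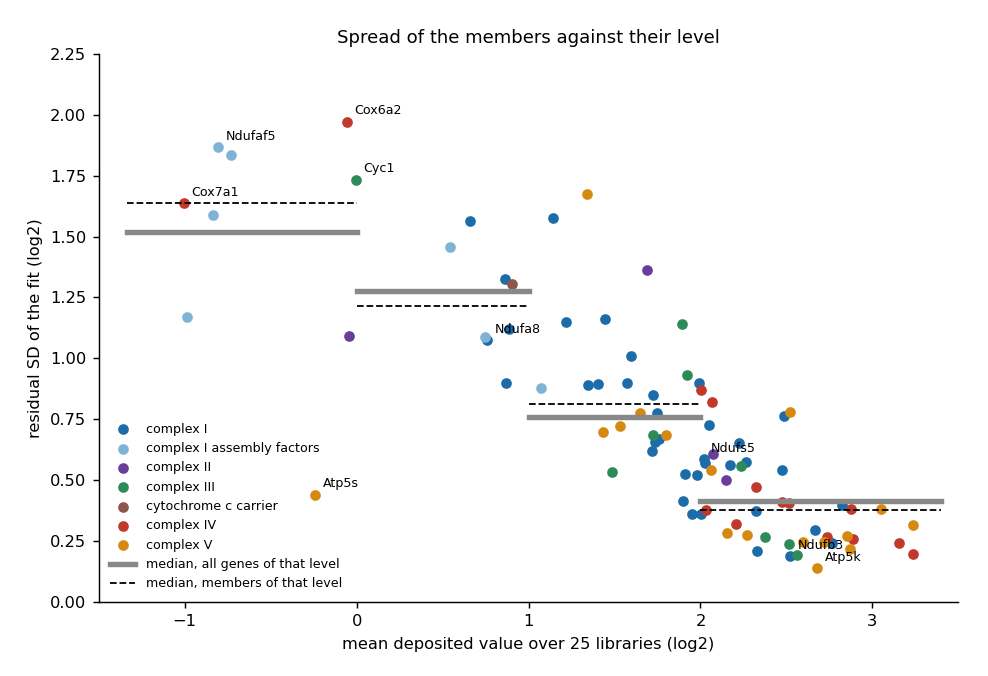
Residual SD of the fit (log2, vertical axis) against the mean deposited value over 25 libraries (log2, horizontal axis) for the 89 genes, coloured by complex; grey and dashed lines are the medians of all genes and of the members within each band of level. Spread was smaller at higher level in both, from 1.64 in the members under 0 to 0.376 in those at 2 or more, and Atp5s at 0.440 lay below the other members of its level.

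Complex I was the largest set, and its mean over 37 genes varied little between groups. It was 1.71 ± 0.24 (SD, n = 4) in WT sham, 1.83 ± 0.05 (n = 3) in WT day 1, 1.65 ± 0.08 (n = 3) in WT day 3 and 1.78 ± 0.19 (n = 3) in WT day 7. The REST cKO sham mean was 1.97 ± 0.14 (n = 3), followed by 1.93 ± 0.12 (n = 2) after 1 day, 1.86 ± 0.06 (n = 4) after 3 days and 1.88 ± 0.18 (n = 3) after 7 days. At day 3 all 4 REST cKO libraries (1.80 to 1.92) lay above all 3 WT libraries (1.56 to 1.72), and in the other groups the genotypes overlapped. Yet the median fitted difference of the 37 genes at day 3 was 0.15, with 22 above 0, against 0.05 for all genes, and it was 0.20 with 22 above 0 without WT day 3 replicate 5.

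The subunits that carry the redox centres of complex I, fixed by their role, were among the variable ones. Ndufs1, which holds several iron-sulfur clusters, lay at 1.97, 2.15, 1.32 and 2.70 in WT sham and at 0.74, 0.92 and 1.47 in WT day 1. In REST cKO it lay at 0.42, 1.50 and -0.31 in sham and at 1.65, -0.90 and 1.56 at day 7. The REST cKO day 1 libraries, at 1.61 and 2.10, lay above all WT day 1 and all REST cKO sham libraries, with fitted differences of 0.89 (SE 0.889) and 1.28 (SE 0.775) and limma adjusted p values of 0.999 and 0.935. With 2 libraries in that group such a split was common. Of all genes 12.9% lay above WT day 1 and 13.9% above REST cKO sham without overlap (members 6.74% and 11.2%). Another 5.75% and 6.46% lay below (members 6.74% and 12.4%). Ndufv1, the NADH-binding subunit, ranged from -2.27 to 2.21 within WT day 3 alone.

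Ndufs5 (chr4:123712710-123718202, minus strand), an accessory subunit on the intermembrane side of complex I, was the complex I gene with the smallest p in 3 comparisons. It lay at 0.59, 1.99, 1.63 and 1.27 in WT sham, at 2.39, 2.17 and 2.23 in WT day 1, at 0.61, 1.54 and 0.32 in WT day 3 and at 2.92, 2.71 and 2.35 in WT day 7. All WT libraries of day 1 and day 7 lay above all of sham, while those of day 3 overlapped sham. The REST cKO libraries lay at 2.73, 2.43 and 2.20 in sham, 1.65 and 2.09 after 1 day, 2.57, 1.96, 2.00 and 2.16 after 3 days, and 2.50, 3.94 and 1.55 after 7 days. The REST cKO sham libraries were above all WT sham libraries, and those of day 3 above all WT day 3 libraries. The difference from WT sham, fitted with the 2 sequencing components held constant and so not equal to the plain difference of means, was 1.05 (SE 0.462, limma adjusted p = 0.726) at day 1 and 1.20 (SE 0.448, limma adjusted p = 0.533) at day 7. Between the genotypes at day 3 it was 1.48 (SE 0.474, limma adjusted p = 0.650), and 1.38 without WT day 3 replicate 5, which stood apart from the other libraries (limma adjusted p = 0.909).

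Ndufa8 (chr2:36036326-36049406, minus strand), another accessory subunit of complex I, lay at 0.53, -3.23 and -0.84 in WT day 7 and at 1.26, 2.80 and 1.10 in REST cKO day 7. The 2 groups did not overlap, but 1 WT library stood far below the others. The fitted difference was 3.04 (SE 0.897, 95% interval 1.19 to 4.88), with a limma adjusted p of 0.234. It was 1.83 without WT day 7 replicate 7, the low library (limma adjusted p = 0.515). In the other groups its library values ran from -0.85 to 2.59.

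Ndufc1 (chr3:51404677-51408988, minus strand), a small membrane subunit, had the smallest p of complex I in REST cKO day 3 and day 7 against REST cKO sham. It lay at 1.27, 1.89 and 1.10 in REST cKO sham, at 2.81, 1.71, 2.90 and 1.88 at day 3 and at 2.49, 2.46 and 2.24 at day 7. The day 7 libraries were all above sham, and the day 3 libraries overlapped it through 1 high sham library. The fitted differences were 1.10 (SE 0.382, limma adjusted p = 0.905) and 1.15 (SE 0.396, limma adjusted p = 0.838). In WT the gene stayed between 1.58 and 2.38 throughout.

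The other complex I genes that led a comparison were Ndufb8, Ndufa10, Ndufb5, Ndufa6 and Ndufs4. Ndufb8 (chr19:44548572-44555440, minus strand; a transcript named Gm20538 overlaps it on the same strand) lay at -0.25, 2.20, 0.50 and 1.91 in WT sham and at 2.29, 2.85 and 2.72 in REST cKO sham, without overlap, for a fitted difference of 1.74 (SE 0.694, limma adjusted p = 0.615). Ndufa10 (chr1:92439010-92473860, minus strand) lay at -1.0, 2.62, 0.99 and 0.97 in WT sham and at 1.45, 2.81 and 2.62 in WT day 3, which overlapped, for a fitted difference of 1.89 (SE 0.779, limma adjusted p = 0.649). Ndufb5, at 3.16 and 3.56, was higher in both REST cKO day 1 libraries than in any other library of the series, whose highest was 2.52. With 2 libraries in that group its fitted difference from WT day 1, 1.99, had a 95% interval of -0.20 to 4.18, and it was 1.31 without WT day 1 replicate 1. Ndufa6 had its smallest p between REST cKO day 1 (2.46 and 2.23) and REST cKO sham (2.82, 2.90 and 3.11). These groups did not overlap, and the fitted difference was -0.63 (SE 0.294, limma adjusted p = 0.924).

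The complex I assembly factors, which build the complex but are not part of it, had lower values and wide spread. Their mean over 7 genes ran from -1.56 to 1.07 between libraries. It was -0.05 ± 0.58 (SD, n = 4) in WT sham and 0.00 ± 0.82 (n = 3) in REST cKO sham. Ndufaf3 and Ndufaf6 appeared at an unadjusted p under 0.05 in opposite directions and are named after their values were seen. Ndufaf3 lay at -0.41, -0.11, 0.62 and 0.65 in WT sham, 0.81, 1.70 and 1.13 at day 1, and 3.12, 1.02 and 1.81 at day 3. Both of these injured groups lay above sham, while the day 7 libraries, at 2.05, -0.02 and 1.58, overlapped it. In REST cKO it lay at 0.96, -0.96 and -0.77 in sham and at 1.83, 1.25 and 1.28 at day 7. Ndufaf6 lay at -0.69, -0.36, 1.20 and 0.57 in WT sham and at -2.98, -1.03 and -1.70 in WT day 1, all lower, while at day 3 and day 7 it overlapped sham.

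Complex II, succinate dehydrogenase, has 4 subunits, all encoded in the nucleus. Its mean was 1.47 ± 0.21 (SD, n = 4) in WT sham, 1.22 ± 0.51 (n = 3) in WT day 1, 1.33 ± 0.48 (n = 3) in WT day 3 and 1.58 ± 0.52 (n = 3) in WT day 7. Among the REST cKO groups it was 1.70 ± 0.15 (n = 3) without injury, 1.94 ± 0.35 (n = 2) after 1 day, 1.64 ± 0.42 (n = 4) after 3 days and 0.94 ± 0.58 (n = 3) after 7 days. The REST cKO day 7 libraries ran from 0.43 to 1.57 and overlapped every WT group. At day 1 the 2 REST cKO libraries (1.69 and 2.19) lay just above the WT libraries (0.67 to 1.67). The mean over all genes was also higher in REST cKO day 1, at 0.97 against 0.70 in WT day 1. Sdha, the flavoprotein subunit that oxidizes succinate, kept its values between 1.44 and 3.08. Sdhb (chr4:140961203-140979193, plus strand), the iron-sulfur subunit, lay at 1.81, 2.51 and 2.22 in REST cKO sham and at 2.00, -1.94 and 2.75 in REST cKO day 7, where 1 library was far below the rest. The fitted difference was -1.89 (SE 1.01, limma adjusted p = 0.918), and 0.01 without REST cKO day 7 replicate 13, the low library. A similar single low library, at -2.17 beside 1.22 and 2.70, stood behind its difference of -1.82 (SE 0.922) between WT day 1 and sham. Without WT day 1 replicate 1, that library, the difference was -0.49. Sdhc, the other membrane anchor beside Sdhd, had the smallest p of the complex in REST cKO day 3 against sham, with a fitted difference of -0.36 (SE 0.494) that was 0.15 with a term for sex. It was -0.13 without REST cKO sham replicate 6, -0.23 without REST cKO sham replicate 18 and -0.61 without REST cKO sham replicate 23. Sdhd lay at -3.09, -1.55 and 0.07 in REST cKO day 7 and at -0.47, 1.39 and -1.18 in WT day 7, which overlapped (fitted difference -1.46, SE 1.03). That difference was -0.63 without WT day 7 replicate 7, -0.69 without REST cKO day 7 replicate 2 and -2.22 without REST cKO day 7 replicate 26.

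Complex III, which passes electrons from ubiquinol to cytochrome c, differed most between the genotypes in sham. Its mean over 9 genes was 1.74 ± 0.15 (SD, n = 4) in WT sham and 2.19 ± 0.24 (n = 3) in REST cKO sham, and the lowest REST cKO library (1.95) was just above the highest WT library (1.94). The median fitted difference of the 9 genes was 0.75, with 8 above 0, against 0.04 for all genes. In WT the mean was 1.85 ± 0.26 (n = 3) at day 1, 1.60 ± 0.25 (n = 3) at day 3 and 1.77 ± 0.28 (n = 3) at day 7. The injured REST cKO groups had means of 2.23 ± 0.07 (n = 2) at day 1, 1.78 ± 0.18 (n = 4) at day 3 and 1.88 ± 0.16 (n = 3) at day 7. At day 1 the 2 REST cKO libraries (2.18 and 2.28) lay above the WT libraries (1.60 to 2.12), and at day 3 and day 7 the genotypes overlapped. The mean over all genes was likewise higher in REST cKO day 1 (0.97) than in WT day 1 (0.70). Of the 9 genes, 6 had fitted differences below 0 from REST cKO sham to day 1 (median -0.15), 8 to day 3 (median -0.25) and 8 to day 7 (median -0.09). Over all genes the medians were 0.29, 0.03 and 0.07, with 63.0%, 51.6% and 53.5% above 0, and none of the 9 passed the test. Of the 11 neuron markers 2, 1 and 3 lay above 0 in the same comparisons (medians -0.59, -0.65 and -0.49). Of 4 inhibitory neuron markers 2, 0 and 2 did (0.15, -1.18 and -0.94), and of 5 astrocyte markers 3, 0 and 3 (0.45, -0.55 and 0.02). Of 10 microglia markers 5, 10 and 7 did (0.02, 0.24 and 0.12). The part of these markers in the complex III values was not tested.

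Uqcrb (chr13:66900617-66905378, minus strand), a subunit that helps form the ubiquinone-binding site of complex III, showed this pattern with little spread. It lay at 2.53, 2.26, 2.22 and 2.36 in WT sham and at 3.01, 3.10 and 2.96 in REST cKO sham, without overlap. After injury the REST cKO libraries lay at 2.49 and 2.25 at day 1, at 2.11, 2.93, 2.24 and 2.09 at day 3 and at 2.44, 2.41 and 2.79 at day 7, each group entirely below REST cKO sham. In WT it lay at 3.07, 2.91 and 2.49 at day 1, at 2.38, 2.25 and 2.12 at day 3 and at 2.41, 2.66 and 2.37 at day 7. The fitted difference between the genotypes in sham was 0.75 (SE 0.279, limma adjusted p = 0.562), and leaving out any 1 of the 7 libraries gave 0.69 to 0.90. From REST cKO sham it was -0.65 (SE 0.284) at day 1, -0.73 (SE 0.268) at day 3 and -0.49 (SE 0.277) at day 7, with limma adjusted p values of 0.924, 0.909 and 0.936. These 3 share the sham libraries of the genotype comparison.

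Uqcrfs1 (chr13:30540308-30545362, minus strand), the Rieske iron-sulfur protein that takes the first electron from ubiquinol, also lay higher in REST cKO sham (2.31, 2.96 and 3.64) than in WT sham (1.92, 2.13, 0.49 and 1.78). Cyc1 (chr15:76343523-76346260, plus strand), the cytochrome c1 that reduces cytochrome c, was too variable to order the groups, with values from -2.88 to 2.30 within WT day 1. Its fitted difference between the genotypes at day 1 was 3.11 with a 95% interval of -0.36 to 6.58, and it was 1.91 without WT day 1 replicate 1 and 2.03 without REST cKO day 1 replicate 25. Uqcrc1 (chr9:108936633-108949623, plus strand), a core protein of the complex, lay at 1.63, 0.98 and 0.04 in WT day 7 and at 2.06, 1.75 and 2.19 in REST cKO day 7. All REST cKO values were higher, with a fitted difference of 1.14 (SE 0.522, limma adjusted p = 0.471) that was 0.76 without WT day 7 replicate 12. Its partner Uqcrc2 (chr7:120635176-120659524, plus strand) lay at 3.07, 1.67 and 3.22 in WT day 3 and at -0.19, 1.63, 3.27 and 0.85 in REST cKO day 3, which overlapped, with a fitted difference of -1.42 (SE 0.675, limma adjusted p = 0.780). It was -0.84 without REST cKO day 3 replicate 9, -2.16 without WT day 3 replicate 16 and -2.21 without REST cKO day 3 replicate 20.

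The higher values in REST cKO sham were not limited to complex III. Over all 89 genes, the median value per library was 2.26, 2.21 and 2.22 in REST cKO sham and 2.06, 2.13, 1.76 and 1.88 in WT sham, without overlap. It was higher within batch 1 (2.26 against 2.06 and 2.13) and within batch 2 (2.21 against 1.76 and 1.88). The mean over the same genes overlapped, at 1.72 to 1.99 in REST cKO sham and 1.54 to 1.77 in WT sham, and within batch 2 the libraries were close (1.719 against 1.714 and 1.658). The median fitted difference was 0.25, with 68 of 89 genes above 0, against 0.04 and 51.8% for all genes. It was 0.20 with a term for batch and 0.27 with a term for sex. No single gene passed the test, and 5 (5.62%) had libraries without overlap in this direction, against 4.02% of all genes: Uqcrb, Ndufb8, Atp5b, Ndufs5 and Uqcrfs1. No gene had libraries without overlap in the other direction (background 3.85%).

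Markers of cell types moved between the same groups. The mean of 11 neuron markers per library was 1.72 to 2.04 in REST cKO sham and 0.49 to 1.58 in WT sham. That of 5 astrocyte markers was 2.05 to 2.59 and 0.93 to 1.15, and that of 10 microglia markers 2.56 to 2.79 and 2.84 to 3.10. None of these 3 lists overlapped between the groups. Fitted differences were above 0 for 10 of the 11 neuron markers (median 0.97), 5 of the 5 astrocyte markers (0.92) and 0 of the 10 microglia markers (-0.28). They were also above 0 for 4 of 4 inhibitory neuron markers (0.95), 8 of 8 endothelial and mural markers (0.60) and 4 of 9 oligodendrocyte markers (-0.10), and no marker passed the test (limma). The means of 4 inhibitory neuron markers (0.04 to 1.24 against -1.37 to 0.97), 9 oligodendrocyte markers (-0.42 to 0.35 against -1.07 to 0.37) and 8 endothelial and mural markers (1.07 to 2.36 against 0.77 to 1.33) did overlap. The part of these cell types in the difference of the oxidative phosphorylation genes was not tested. In bulk samples fewer cells of a type and less RNA per cell cannot be told apart.

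**Figure D3:**
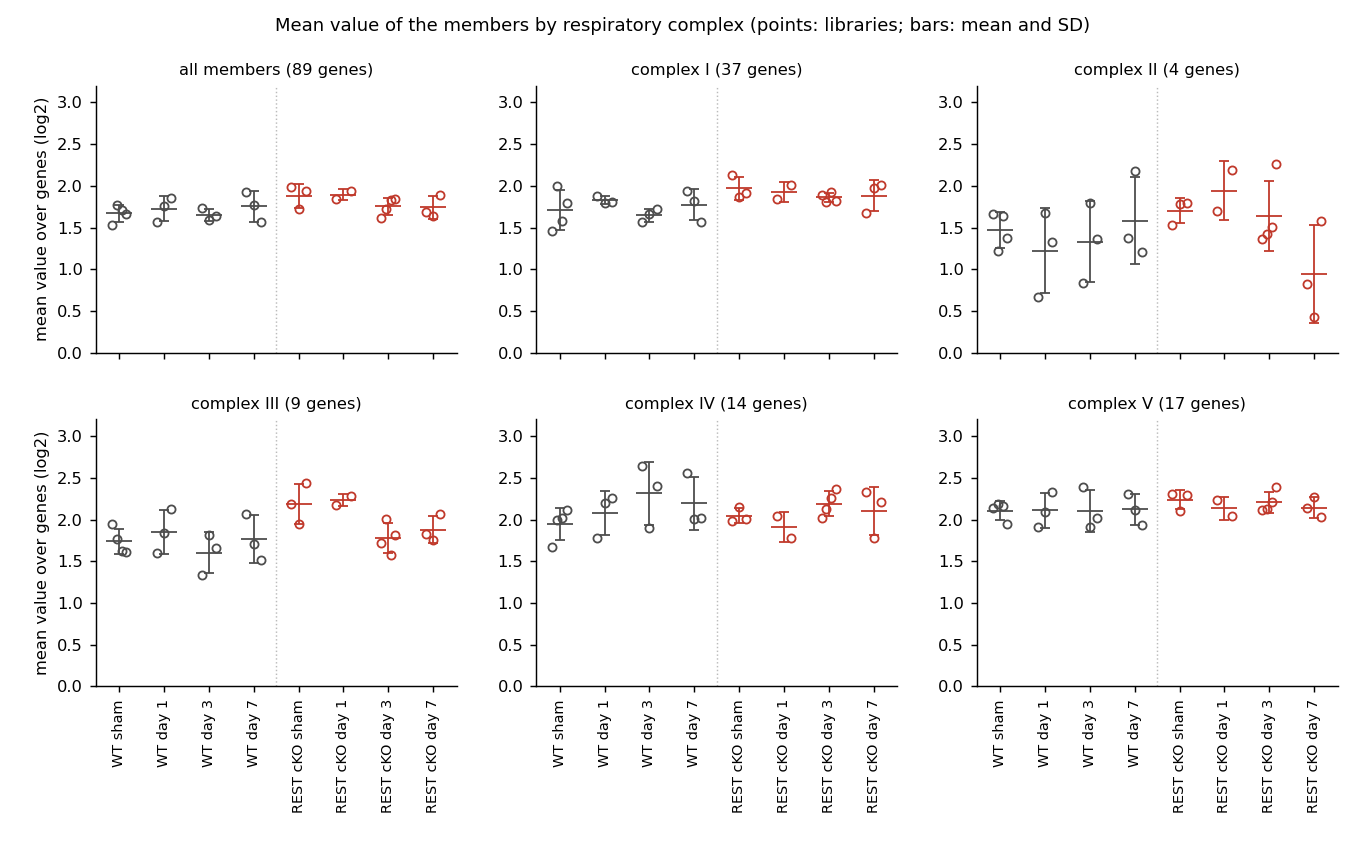
Mean deposited value (log2, vertical axis) over all 89 genes and over the genes of each complex, by group (horizontal axis); points are libraries, bars the group mean and SD, grey for WT and red for REST cKO. Complex III lay at 1.95 to 2.43 in REST cKO sham against 1.61 to 1.94 in WT sham, and complex II ran from 0.43 to 1.57 in REST cKO day 7.

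Cytochrome c, the carrier between complexes III and IV, is encoded by Cycs (chr6:50562563-50566538, minus strand) in somatic cells. It lay at -0.47, 1.75, 2.49 and 0.64 in WT sham and at 1.36, -0.19 and 2.43 in REST cKO sham. In WT it lay at 0.18, 0.09 and 1.43 at day 1, at 3.03, 1.31 and -0.92 at day 3 and at 1.67, -0.64 and -0.42 at day 7. In REST cKO the values were 1.40 and 1.84 at day 1, at -0.33, 1.08, 1.30 and 0.88 at day 3 and at 2.28, -0.54 and 1.01 at day 7. The genotypes overlapped at every time.

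Complex IV, cytochrome c oxidase, had a mean over 14 genes of 1.95 ± 0.19 (SD, n = 4) in WT sham, 2.08 ± 0.26 (n = 3) in WT day 1, 2.31 ± 0.38 (n = 3) in WT day 3 and 2.19 ± 0.31 (n = 3) in WT day 7. With REST deleted, the sham mean was 2.05 ± 0.09 (n = 3) and the means after injury were 1.91 ± 0.18 (n = 2), 2.19 ± 0.15 (n = 4) and 2.10 ± 0.29 (n = 3), in order of time. From WT sham to day 3, 11 of 14 genes had differences above 0, with a median of 0.36 against 0.01 for all genes. The WT day 3 libraries (1.90 to 2.64) overlapped sham (1.67 to 2.11), and the highest was replicate 5, the library that stood apart. Without it 10 of 14 genes lay above 0, with a median of 0.28. In the same comparison 9 of 11 neuron markers (median 0.71), 4 of 5 astrocyte markers (1.01) and 6 of 8 endothelial and mural markers (0.77) lay above 0, and their part in the complex IV values was not tested.

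Cox7a2 (chr9:79755361-79759878, minus strand), the widely expressed form of subunit 7A, led that comparison. It lay at 1.61, 3.10, 2.60 and 2.71 in WT sham and at 3.16, 3.63 and 3.47 in WT day 3, all higher than sham. The fitted difference was 1.07 (SE 0.308, limma adjusted p = 0.537), the smallest unadjusted p of any member in any comparison (limma, 0.00186). It was 1.16 without WT day 3 replicate 5 and 0.80 without WT sham replicate 3, the low sham library. Cox6a1 lay at 2.47, 2.34, 1.83 and 2.58 in WT sham and at 3.51, 3.02 and 2.42 in WT day 3, which overlapped.

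Cox5a (chr9:57521274-57532426, plus strand; the long noncoding Gm26631 overlaps it on the other strand), a nuclear-encoded subunit of complex IV that faces the matrix, separated the genotypes at day 7 with little spread. It lay at 1.68, 1.86 and 1.81 in WT and at 2.70, 2.87 and 2.75 in REST cKO. The fitted difference was 1.07 (SE 0.328, 95% interval 0.39 to 1.75, limma adjusted p = 0.238). Leaving out any 1 of the 6 libraries gave 0.98 to 1.14, and a term for sex 1.01. That term rests on the other groups, because at day 7 sex and genotype cannot be told apart. Against REST cKO sham (2.04, 2.23 and 2.04) the day 7 values were also all higher, with a fitted difference of 0.74 (SE 0.350, limma adjusted p = 0.874). At day 3 both genotypes spread over similar ranges, 1.56 to 2.64 in WT and 2.09 to 2.91 in REST cKO. Cox4i1 (chr8:120668222-120674207, plus strand), the common form of subunit 4, lay at 1.06, 1.56 and 1.94 in WT day 3 and at 2.24, 2.79, 1.87 and 2.83 in REST cKO day 3. They overlapped through 1 REST cKO library, with a fitted difference of 1.04 (SE 0.376, limma adjusted p = 0.664). Cox6c, a small membrane subunit, stayed between 2.74 and 3.57 in all 25 libraries.

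Subunits with tissue-specific forms kept a stable and a variable partner. Cox6a1, the general form of subunit 6A, stayed between 1.83 and 3.51, while its muscle form Cox6a2 (chr7:128205435-128206387, minus strand; Itgad overlaps it on the other strand) ran from -3.44 to 2.23. Cox7a2 stayed between 1.61 and 3.63, and Cox7a2l, which takes part in joining complexes III and IV into supercomplexes, between 2.28 and 3.47. Cox7a1, the muscle form of subunit 7A, ran from -3.55 to 1.84. Cox7a2l lay at 2.79, 3.00, 3.26 and 3.16 in REST cKO day 3, all above REST cKO sham (2.53, 2.61 and 2.38), with a fitted difference of 0.50 (SE 0.258, limma adjusted p = 0.999). Ndufa4 ran from 0.36 to 3.30, and its values within WT sham were 0.73, 1.52, 1.55 and 1.65. Cox7b, a small subunit with a single widely expressed form, had the smallest p of complex IV in WT day 7 against sham, with a fitted difference of 0.94 (SE 0.565, limma adjusted p = 0.803).

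**Figure D4:**
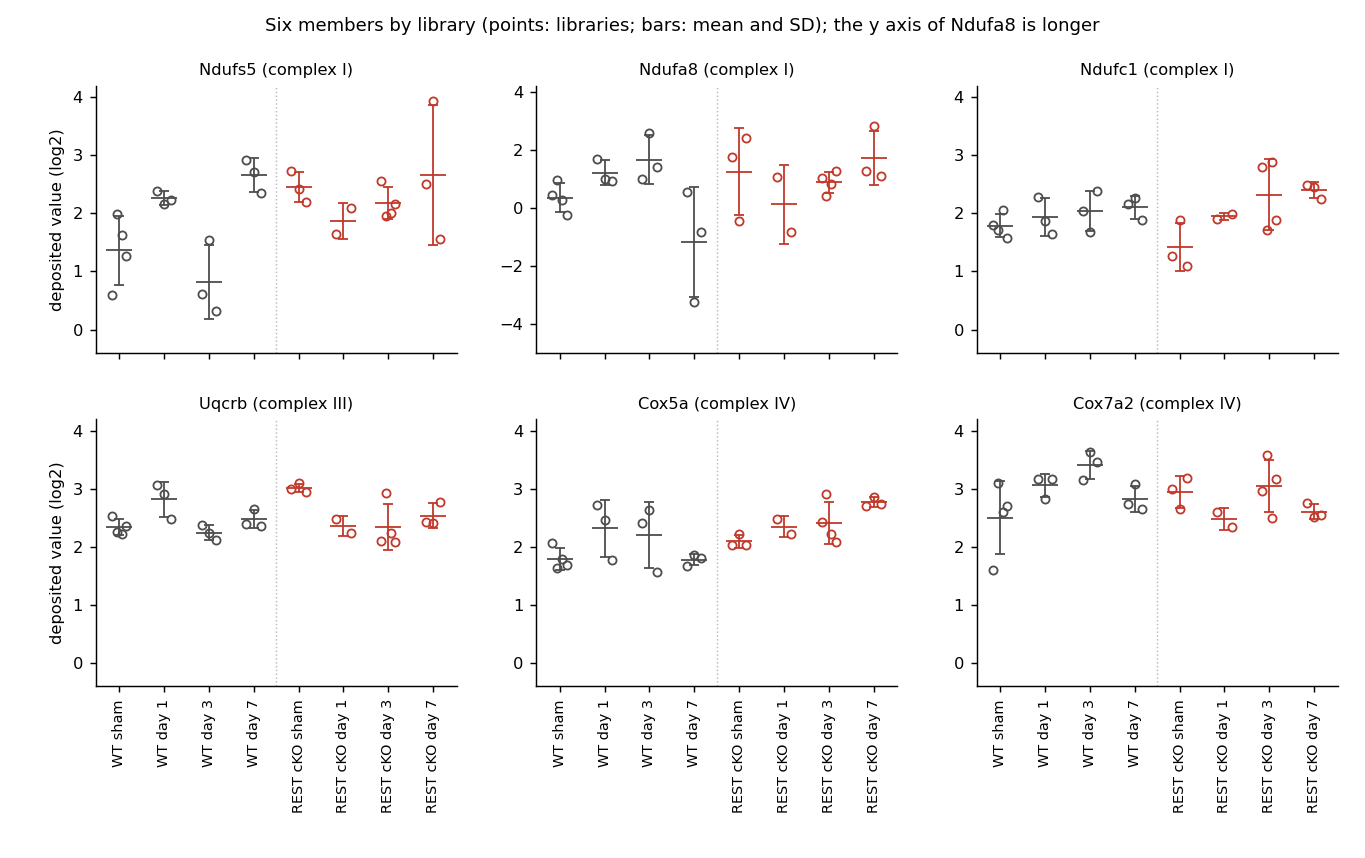
Deposited values (log2, vertical axis) of Ndufs5, Ndufa8, Ndufc1, Uqcrb, Cox5a and Cox7a2 by group (horizontal axis); points are libraries, bars the group mean and SD, grey for WT and red for REST cKO, and the vertical axis of Ndufa8 is longer. The Cox5a values at day 7 were 1.68 to 1.86 in WT and 2.70 to 2.87 in REST cKO, whereas 1 WT library of Ndufa8 lay at -3.23.

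Complex V, the ATP synthase, had a median residual SD of 0.381, close to the 0.393 of complex IV and below those of complexes I, II and III (0.556 to 0.850). Of its 17 genes 10 had a residual SD under 0.5, as did 10 of the 14 of complex IV. Its mean over 17 genes was 2.11 ± 0.11 (SD, n = 4) in WT sham, 2.11 ± 0.25 (n = 3) in WT day 3, 2.24 ± 0.11 (n = 3) in REST cKO sham and 2.14 ± 0.12 (n = 3) in REST cKO day 7, and every WT group overlapped the REST cKO group of the same time. Only 1 of its 17 genes ever fell under -2 in a library, against 54.6% of all genes. Atp5a1 and Atp5b, the alpha and beta subunits of the catalytic head, lay at 2.50 to 3.79 and 2.31 to 3.36 over the 25 libraries. Atp5c1, the gamma subunit that turns inside the head, was more variable, from -0.30 to 2.82.

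Atp5b (chr10:128083273-128090391, plus strand; Mir677 and Snord59a lie within it on the same strand) was the complex V gene with the smallest p in 4 comparisons. It lay at 2.42, 2.73, 2.86 and 2.76 in WT sham, and at 2.97, 3.13 and 3.00 in WT day 3. In REST cKO it lay at 2.99, 3.22 and 2.98 in sham and at 2.47, 2.98, 2.40 and 3.00 at day 3. WT day 3 and REST cKO sham both lay entirely above WT sham, and the remaining pairs overlapped. The fitted difference was 0.51 (SE 0.252, limma adjusted p = 0.713) from WT sham to day 3 and 0.56 (SE 0.260, limma adjusted p = 0.686) between the genotypes in sham. At day 3 it was -0.46 (SE 0.242, limma adjusted p = 0.797) between the genotypes and -0.51 (SE 0.249, limma adjusted p = 0.999) from REST cKO sham. Without REST cKO sham replicate 6 the difference in sham was 0.90 and that from REST cKO sham to day 3 was -0.82. The alpha subunit Atp5a1 led the complex between the genotypes at day 1 (-0.57, SE 0.359) and day 7 (0.41, SE 0.286), and the latter was -0.06 without REST cKO day 7 replicate 13. Atp5d, the delta subunit, lay at 2.47, 2.71 and 2.33 in REST cKO sham and lower in all libraries of REST cKO day 1 (2.12 and 2.10), day 3 (1.60 to 1.92) and day 7 (1.58, 1.80 and 2.22), the last with a fitted difference of -0.62 (SE 0.342, limma adjusted p = 0.932). Atp5j2, a membrane subunit, lay at 2.49, 2.52, 2.66 and 2.59 in WT sham and at 2.19, 1.80 and 2.24 in WT day 1, all lower, for a fitted difference of -0.60 (SE 0.295, limma adjusted p = 0.763). Atp5f1, the b subunit of the side stalk, led in WT day 7 against sham, with a fitted difference of 0.93 (SE 0.514, limma adjusted p = 0.766).

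The proton-carrying c ring of complex V is made of identical copies of 1 mature peptide, which 3 genes encode with different import signals. Atp5g3 was steady, at 2.51 to 3.29 over the 25 libraries. Atp5g1 ran from 0.26 to 2.61 and Atp5g2 from -2.76 to 2.96. Within WT day 3, Atp5g2 lay at 1.63, -0.63 and -1.20, and in REST cKO day 7 at 2.06, 2.52 and 2.32, while WT day 7 lay at 2.06, 2.08 and -0.44, which overlapped.

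**Figure D5:**
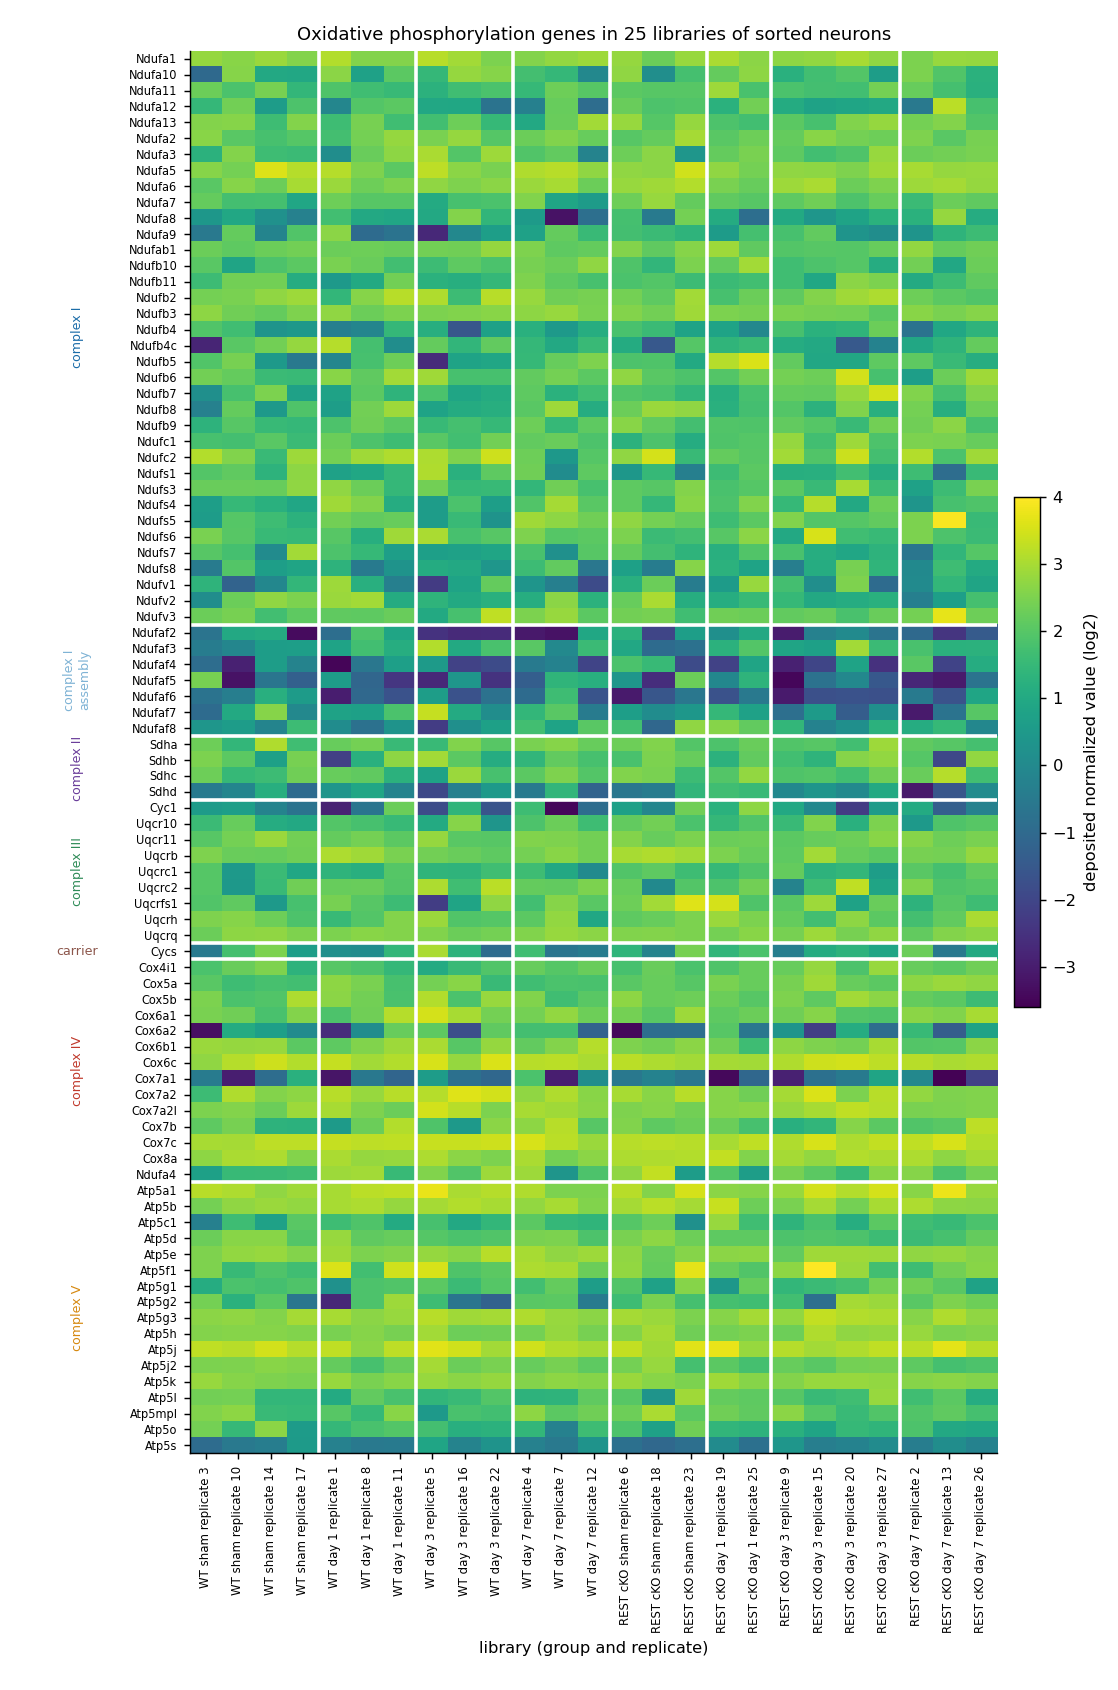
Deposited value (log2, colour) of 88 of the 89 genes (rows, grouped by complex) in each of the 25 libraries (columns, grouped by genotype and time, white lines between groups). Rows differ far more than columns: genes such as Atp5k (2.47 to 2.90) are even across all libraries, whereas Cox6a2 (-3.44 to 2.23) varies from library to library within a group.

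Whether injury acted differently in the 2 genotypes was tested at day 7, as the change from sham in REST cKO minus the change in WT. The median over the 89 genes was -0.26, with 30 above 0, against 0.19 and 56.5% for all genes, and none passed the test (limma). The median was -0.083 without REST cKO sham replicate 6 and -0.14 with no sequencing components. In the same test 2 of 11 neuron markers (median -0.42), 0 of 5 astrocyte markers (-0.41), 1 of 4 inhibitory neuron markers (-0.73), 3 of 8 endothelial and mural markers (-0.54), 3 of 9 oligodendrocyte markers (-0.37) and 8 of 10 microglia markers (0.22) lay above 0, and their part was not tested. All 4 complex II genes lay below 0. Ndufs4, an accessory subunit of complex I, had the smallest p of the members. It lay at 0.66, 1.50, 1.23 and 0.90 in WT sham and at 1.93, 2.98 and 2.04 in WT day 7, and at 2.12, 1.45 and 2.64 in REST cKO sham and 0.36, 1.80 and 1.92 in REST cKO day 7. The WT groups did not overlap and the REST cKO groups did, and the difference between the changes was -1.96 (SE 0.907, limma adjusted p = 0.782). For Uqcrfs1 it was -2.05 (SE 1.20, limma adjusted p = 0.849), or -3.11 without REST cKO sham replicate 6. For Sdhb it was -2.09 (SE 1.42, limma adjusted p = 0.872), or 0.11 without REST cKO day 7 replicate 13. Cox7a2 led complex IV with -0.87 (SE 0.444) and Atp5f1 complex V with -1.65 (SE 0.815).

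Other genes of energy metabolism, from lists that the symbol rule did not use, gave 0 genes past an adjusted p of 0.1 in all 11 tests as well (limma). The comparisons named for each list were chosen after their values were seen. The subunits encoded in mitochondrial DNA, of which 12 of 13 were measured, had a mean of 3.02 to 3.52 in every library, and their median difference was between -0.08 and 0.21 in the 10 comparisons. Of 40 further assembly factors 30 were measured, and between the genotypes at day 7 their median difference was 0.64 with 24 above 0, against 0.23 and 60.5% for all genes. In that comparison 10 of 11 neuron markers (median 0.57) and 5 of 5 astrocyte markers (0.59) also lay above 0, and their part was not tested. The 19 genes of the TCA cycle and pyruvate dehydrogenase, all measured, had a median difference of 0.61 between the genotypes in sham, with 12 above 0. The 16 glycolysis genes had a median of 0.30 in that comparison, with 13 above 0, and share Aldoc with the astrocyte and Eno2 with the neuron markers. All genes had a median of 0.04 there, with 51.8% above 0, and the neuron and astrocyte markers had the medians of 0.97 and 0.92 given above, whose part was not tested. Of 14 regulators of mitochondrial biogenesis 11 were measured, and their median difference ran from -0.38 in REST cKO day 3 against sham (2 above 0) to 0.62 in WT day 1 against sham (8 above 0), where all genes had 0.03 and 0.12. In these 2 comparisons 1 and 9 of 11 neuron markers lay above 0 (medians -0.65 and 0.61), as did 0 and 5 of 5 astrocyte markers (-0.55 and 1.06). Of 10 microglia markers 10 and 0 did (0.24 and -0.29), and the part of these markers was not tested. Nucleotide and phosphate carriers, 10 of 12 measured, lay above 0 in 10 of 10 genes between the genotypes at day 7, against 60.5% of all genes. Their median of 0.15 was below the 0.23 of all genes. The part of the neuron and astrocyte markers given above for that comparison was not tested. Of the antioxidant enzymes 12 of 14 were measured, and their median difference ran from -0.23 in WT day 7 against sham (2 above 0) to 0.31 between the genotypes at day 3 (7 above 0), where all genes had -0.12 and 0.05.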

How the data were processed

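QuantSeq 3′ mRNA libraries of about 1000 sorted neurons each were measured in 25 samples. Per the labels and the study's methods, the authors aligned reads to mm10 with STAR and quantified them with Salmon (versions not given in the sources used here). They scaled counts between libraries, dropped genes with no counts in more than 50% of samples, and regressed sequencing components out. The methods also name removal of unwanted variation (RUV) as the step against batch effects. The term for batch and the comparisons within a batch may thus rest on values already corrected for batch. The deposited values are log2 normalized counts, of which the log base was read from the study's plots. The files hold no read total per library. Being 3′ tag data the values are not per length, and where levels of genes are set side by side they are deposited values. The deposited table also holds the authors' own log2 fold changes and p-values for their comparisons, which were not used. Of 9955 rows, 24 without a symbol (0.241%) were left out.

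The values were fitted with limma 3.58.1 in R 4.3.3 (a mean for each of 8 groups, 2 sequencing components from the labels, trended variances, Benjamini-Hochberg adjustment over 9931 genes, threshold 0.1). The fit was checked on simulated data. Of all genes, 140 still correlated with a component (over a tolerance of 1e-05), Rest among them and 0 of the oxidative phosphorylation genes. All libraries entered the fit, and no 2 libraries were identical. The labels do not say that libraries came from separate animals, so p-values measure the spread between these samples. A figure legend of the study counts replicates as mice, with the same number in each condition, whereas the group sizes here differ. Tables and figures were made with Python 3.11.15, numpy 2.4.6, pandas 2.3.3 and matplotlib 3.10.9. Gene positions are those of GENCODE M21. The values of 1 member are not reported here on their own, though it is counted in every summary.

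The members, lists and tests were chosen with earlier results of these data known. Named genes were those past the threshold, the gene with the smallest p of each complex in each comparison, subunits fixed by role, isoforms, and the 2 largest and 2 smallest residual SDs. Alternatives covered the components, libraries in the fit, batch, sex, library weights, a filter at a mean of 0, the variance trend, quantile normalization, genes that correlate with a component, each library's share of values under -2, a threshold of 0.05, the mean over members, and leaving out each library. Leaving WT day 3 replicate 5 out of the complex I and complex IV values at day 3 was added after seeing the data.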

Additional observations from a re-analysis of the deposited data

Results flagged for a closer look

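Among the named genes and 2 values per library (the median over the 89 genes and the share of all genes under -2), 2 of 90 groups of 4 libraries had 1 library far from the other 3 (Dixon's test at its 95% critical value), where chance alone flags about 1 in 20. Ndufa4, a subunit of complex IV, lay at 0.73 in WT sham replicate 3 and at 1.52 to 1.65 in the other WT sham libraries. Ndufs1, the iron-sulfur subunit of complex I, lay at 1.70 in REST cKO day 3 replicate 20 and at 1.11 to 1.20 in the other libraries of that group.

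Ndufs5 was picked by a search of the 89 genes at day 1, day 3 and day 7. The search sought libraries on opposite sides of sham in the 2 genotypes, so the lack of overlap is its rule. All WT day 1 libraries lay above all WT sham libraries (fitted difference 1.05, limma adjusted p = 0.726), as did 4.34% of all genes. Both REST cKO day 1 libraries lay below all REST cKO sham libraries (fitted difference -0.52), as did 6.46% of all genes. The share of all genes that did both was not counted. The difference between the genotypes was not tested.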

How the results depend on the processing

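Across all alternatives the number of members past the threshold was recomputed 198 times and was 0 each time (limma). Of 986 recomputed differences of named genes, 982 kept their sign, 0 passed the threshold and 4 turned: Atp5a1 between the genotypes at day 7 (-0.061, against up to 0.62 when another library was left out), Sdhb from REST cKO sham to day 7 (0.012, against down to -2.67) and in the day 7 test of the difference (0.11, against down to -3.02), all without REST cKO day 7 replicate 13, and Sdhc from REST cKO sham to day 3 with a term for sex (0.15). Leaving out 1 library moved 26 of 55 named differences by more than 1.5 times. Of 198 recomputed medians over the members, 12 moved by more than 0.104, the SD of the member median between libraries. A term for sex gave 0.041 for WT day 7 against sham and 0.10 between the genotypes at day 7, where the sign turned from -0.04. Between the genotypes at day 7 that term rests on the other groups, because sex and genotype cannot be told apart there. The mean in place of the median gave 0.26 between the genotypes at day 1 and -0.0031 for REST cKO day 1 against sham, which was -0.29 after quantile normalization. The day 7 test of the difference gave -0.14 with no components, also with only the groups compared, and -0.37 after quantile normalization. Leaving out 1 library gave 0.054 to 0.21 for WT day 3 against sham and -0.14 to 0.087 between the genotypes at day 3, the 0.21 and the -0.14 being without WT day 3 replicate 16. It gave -0.18 to -0.034 for REST cKO day 1 against sham and -0.33 to -0.083 for the test of the difference, the upper ends being without REST cKO day 1 replicate 19 and REST cKO sham replicate 6. The causes were not tested. No paired analysis was possible because the replicate numbers of the libraries run through the whole series, so that no 2 groups share one. The files hold no read total per library, and genes with a mean under 0 had a median residual SD of 1.64, which limits what could be detected for them.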

Other observations

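The markers of cell types were also compared between WT sham and WT day 1. For all 9 measured oligodendrocyte lineage markers the fitted difference from WT sham to WT day 1 was above 0, with a median of 2.05, against 55.9% above 0 over all genes, but the mean of these markers overlapped between the groups (-0.39 to 2.18 in WT day 1 and -1.07 to 0.37 in WT sham). Among 5 astrocyte markers, 4 reached an unadjusted p under 0.05 (limma) in the same comparison (6.43% of all genes did), the glutamate transporters Slc1a2 and Slc1a3 among them, with a median of 1.06. The fitted differences of 9 of 11 neuron markers lay above 0 (median 0.61), and those of 0 of 10 microglia markers (median -0.29). No marker of these lists passed an adjusted p of 0.1 (limma), and the median of the 89 oxidative phosphorylation genes in that comparison was 0.03.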
